A study of Mus musculus with 8 samples.

Results

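The astrocyte identity genes described here are 10 transcripts that textbooks use to recognise astrocytes: Gfap, Aqp4, Aldh1l1, S100b, Slc1a2, Gja1, Gjb6, Ndrg2, Mlc1 and Aldoc. They were chosen by gene symbol, out of 55385 genes in the deposited table, and all 10 were kept by the filter for testing, a TPM that reached 1 in 4 or more libraries. TPM, the usual per-transcript unit of RNA sequencing, corrects a gene's reads for transcript length and for the library's total, so levels of different genes can be set side by side. The RNA was that of NSPCs, neural stem and progenitor cells, which had been isolated by fluorescence sorting of dissociated cortex at postnatal day 7. The iKO group (4 libraries) had the genotype Nestin-CreERT2; Ash2lf/f; tdTomato. The WT group (4 libraries) had Nestin-CreERT2; tdTomato, so Cre and the reporter were shared and the floxed Ash2l allele was not. CreERT2 is a Cre recombinase that acts only when tamoxifen is bound, here driven by the promoter of Nestin, a filament gene of neural progenitors. Whether a library came from 1 animal or several is not stated, so p-values measure the spread between libraries, which may be technical.

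Astrocytes clear glutamate and potassium from around synapses, line blood vessels with endfeet rich in water channels, and are joined to each other by gap junctions. In the first postnatal weeks of the mouse cortex they arise from radial glia and divide locally. Radial glia and adult neural stem cells express several of the same genes, Gfap, Slc1a3 and Aldoc among them, so these transcripts mark an astroglial state shared by stem cells and astrocytes. In bulk RNA, fewer cells of a type and less RNA per cell cannot be told apart.

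The targeted gene, Ash2l, whose protein is part of the histone H3 lysine 4 methyltransferase complexes, ranged between 6.11 and 7.69 TPM across iKO libraries, below the WT range of 16.1 to 19.2 TPM. Libraries of the same group correlated at 0.987 to 0.990 on the log2(TPM + 1) scale, and libraries of different groups at 0.962 to 0.964. Sequencing depth cannot be read from TPM and is unknown. Genes that reached 1 TPM numbered 16089 to 16108 across iKO libraries and 16517 to 16616 across WT libraries. The source of this difference was not tested. Of 16413 genes tested with limma on log2(TPM + 1), 52.6% passed a Benjamini-Hochberg adjusted p of 0.05, 31.9% lower and 20.7% higher in iKO. In 49.2% of tested genes the groups did not overlap. The counts below are to be read against these shares. A score of Y-linked transcripts minus Xist ranged between -0.82 and -0.26 in iKO libraries and between 0.57 and 1.01 in WT libraries, so the sex composition of the libraries and genotype cannot be told apart.

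The start regions of 4 members are shown, those that held no annotated exon base. They belong to Gjb6 and Gja1, connexins that fell by different amounts, Gfap, which fell less, and S100b, which was higher in iKO. Each is the 250 bases before the start given by RefSeq (GRCm38.p6), read 5′ to 3′, and none overlaps an exon of the GENCODE M21 annotation. Capitals mark matches, on either strand, to TTGGC, the core of the site of NFI factors, and to TGGGAA, the core of the site of RBPJ, the DNA-binding partner of Notch. The Gjb6 window is chr14:57133612-57133861 on the minus strand, and that of Gja1 is chr10:56377050-56377299 on the plus strand. The Gfap window is chr11:102897201-102897450 on the minus strand, and that of S100b is chr10:76253586-76253835 on the plus strand.
Gjb6: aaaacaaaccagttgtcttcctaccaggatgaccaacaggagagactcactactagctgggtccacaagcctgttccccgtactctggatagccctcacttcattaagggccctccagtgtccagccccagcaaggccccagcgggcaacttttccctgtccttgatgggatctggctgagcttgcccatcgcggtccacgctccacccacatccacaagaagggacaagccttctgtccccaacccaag
Gja1: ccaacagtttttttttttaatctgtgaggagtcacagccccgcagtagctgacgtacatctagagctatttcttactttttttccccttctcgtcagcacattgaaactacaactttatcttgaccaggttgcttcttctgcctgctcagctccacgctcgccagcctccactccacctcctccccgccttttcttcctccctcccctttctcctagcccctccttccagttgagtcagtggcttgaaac
Gfap: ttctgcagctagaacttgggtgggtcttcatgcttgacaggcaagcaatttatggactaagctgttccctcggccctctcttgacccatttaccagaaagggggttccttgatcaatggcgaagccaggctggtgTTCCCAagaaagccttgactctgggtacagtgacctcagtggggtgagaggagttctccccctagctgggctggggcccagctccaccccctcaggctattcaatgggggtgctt
S100b: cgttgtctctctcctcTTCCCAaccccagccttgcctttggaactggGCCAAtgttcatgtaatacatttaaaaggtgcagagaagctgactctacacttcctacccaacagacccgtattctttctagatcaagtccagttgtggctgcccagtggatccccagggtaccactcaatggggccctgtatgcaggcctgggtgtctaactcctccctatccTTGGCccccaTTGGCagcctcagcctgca
Neither connexin window held a match to TTGGC or TGGGAA. Gfap held 1 match to TGGGAA, and S100b held 3 to TTGGC and 1 to TGGGAA. Among 32851 start regions of the same length, 41.5% held TTGGC and 21.6% held TGGGAA. None of the 4 windows held TTCNNNGAA, the palindrome bound by STAT factors, which 7.02% of start regions held. CG dinucleotides numbered 5 in Gjb6, 6 in Gja1, 2 in Gfap and 2 in S100b, against a median of 6 over all start regions. Start regions of 9 of the 10 members were examined, all but Aqp4. Those of the other members, not shown, overlapped exons. Among them TTGGC was matched in Slc1a2, Aldoc, Ndrg2 and Mlc1, TGGGAA in Aldh1l1, Aldoc and Mlc1, and TTCNNNGAA in Aldoc. A match is a description of letters, not of binding.

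Of the 10 members, 8 fell, 1 rose (S100b) and 1 did not pass (Aldh1l1) in iKO by limma. The median log2 fold change was -0.43 over the members and -0.06 over all tested genes. Highly expressed genes are a closer background for 9 of the members: among 3733 tested genes with a mean of at least 50 TPM, a level chosen after seeing the data, 34.7% fell and 37.2% rose. Summed over the 10 members, the level was 5879 ± 76.2 TPM in WT libraries and 4434 ± 86.5 TPM (SD, n = 4) in iKO libraries. The falls ranged from the connexin Gjb6, at 25.8% of its WT level, to Aqp4, at 92.1%. The groups did not overlap for 9 of the 10 members.

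**Figure D1:**
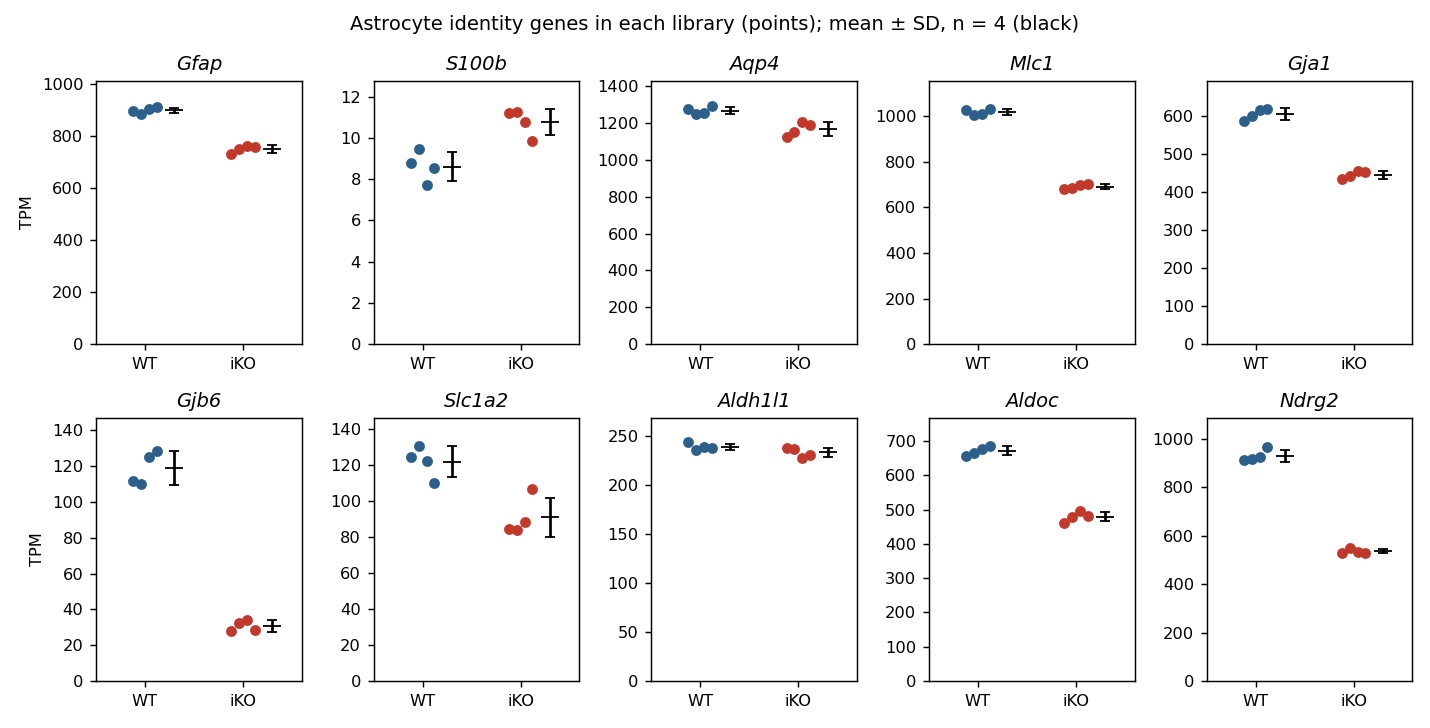
TPM (vertical axes, from 0) of the 10 astrocyte identity genes in the 4 WT and 4 iKO libraries, 1 point per library, with the mean and SD of each group in black. As a ratio Gjb6 differs most, 118.9 against 30.7 TPM, Aldh1l1 overlaps between groups, and S100b alone is higher in iKO.

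Gja1 and Gjb6 encode connexin 43 and connexin 30, the main gap junction proteins of astrocytes. Gjb6 (ENSMUSG00000040055.9) stood at 27.6, 32.6, 34.2 and 28.4 TPM in iKO replicates 1 to 4 and at 112, 110.2, 125 and 129 TPM in WT replicates 1 to 4. Every iKO library lay below every WT library, with a gap far wider than the spread within either group. Its log2 fold change was -1.92 (SE 0.0798, limma adjusted p = 2.41e-07), and only 67 of the 16413 tested genes, Gjb6 included, had a value that low. Gja1 (ENSMUSG00000050953.10) stood at 433, 441, 455 and 453 TPM in iKO and at 585, 600.15, 615 and 617 TPM in WT. The groups were again separate, but the fall was smaller, at -0.44 (SE 0.0228, limma adjusted p = 9.14e-07).

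Gja1 mRNA was 5.08 times as abundant as Gjb6 mRNA in WT and 14.5 times as abundant in iKO. The log2 ratio of Gja1 to Gjb6 was 2.34 ± 0.0838 in WT and 3.82 ± 0.133 in iKO (SD, n = 4), a difference of 1.48 (SE 0.0786). An exact two-sided permutation test over the 70 assignments of 8 libraries gave p = 0.0286, the smallest possible, and the same after adjustment over 4 gene pairs. Among 7 tested connexins and pannexins outside the members, 2 fell, 1 rose and 4 did not pass. Their median log2 fold change of -0.03 turned to 0.03 with trimmed mean factors, a rescaling of the libraries. Gjb2, connexin 26, which lies next to Gjb6 in the genome, fell from 7.25 ± 0.753 to 3.00 ± 0.598 TPM (SD, n = 4). Gjb1, an oligodendrocyte connexin, fell from 4.43 to 2.75 TPM, and the channel gene Panx1 rose from 20.0 to 22.8 TPM, a call that the authors' deposited table did not make (adjusted p = 0.126). The endothelial connexin Gja4 (22.2 and 19.8 TPM in iKO and WT) and the widely expressed Gjc1 (13.8 and 14.1 TPM) did not pass. Gja4 was called higher in the authors' deposited table (0.229 on the log2 scale, adjusted p = 0.0119). Limma also called it higher with trimmed mean factors (adjusted p = 0.0184) and with quantile normalization (adjusted p = 0.0167).

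Aqp4 and Mlc1 are membrane proteins of astrocyte endfeet: Aqp4 is the water channel, and MLC1 works in ion and volume regulation together with the adhesion protein HEPACAM. Aqp4 (ENSMUSG00000024411.11) was the most abundant member in both groups, at 1124, 1152, 1203 and 1189 TPM in iKO and 1277, 1250.4, 1251 and 1289 TPM in WT. The groups did not overlap, but the highest iKO and lowest WT library were close, and the log2 fold change was -0.12 (SE 0.0221, limma adjusted p = 0.00187). Trimmed mean factors ended this call (-0.05, adjusted p = 0.0951), and the authors' deposited table gave -0.03 (adjusted p = 0.112). Mlc1 (ENSMUSG00000035805.13) stood at 679, 683, 698 and 702 TPM in iKO and at 1026, 1006, 1009.6 and 1031 TPM in WT. Its groups lay far apart beside a small spread, with a log2 fold change of -0.56 (SE 0.0153, limma adjusted p = 2.29e-08).

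The log2 ratio of Aqp4 to Mlc1 went from 0.32 ± 0.0052 in WT to 0.76 ± 0.0234 in iKO (SD, n = 4), a difference of 0.44 (exact permutation p = 0.0286). Of 11 tested endfoot and MLC1 partner genes, 6 fell, 1 rose and 4 did not pass (median log2 fold change -0.23). Hepacam fell from 375 ± 9.71 to 173 ± 3.08 TPM (SD, n = 4), a larger log2 change than that of Mlc1, at -1.11. Clcn2, a chloride channel that binds HEPACAM, fell from 7.93 to 4.30 TPM. Dtna and Dag1, of the dystrophin complex that anchors AQP4 at the endfoot, fell to 168 TPM from 221 TPM and to 76.3 TPM from 94.0 TPM. Kcnj10, the inward rectifier potassium channel of endfeet, was the list's rise, from 14.9 to 16.5 TPM.

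Slc1a2 encodes GLT-1, a glutamate transporter that becomes the main one of mature astrocytes. Slc1a2 (ENSMUSG00000005089.15) stood at 84.6, 83.9, 88.7 and 107 TPM in iKO and at 125, 131, 123 and 110.2 TPM in WT. The groups came close without overlapping, since iKO replicate 4 was the highest of its group and WT replicate 4 the lowest of its own. The log2 fold change was -0.42 (SE 0.0817, limma adjusted p = 0.0023), and -0.50 without iKO replicate 4. Slc1a3, the transporter GLAST of radial glia and young astrocytes, was more abundant by far, between 1201 and 1258 TPM in iKO libraries and between 2006 and 2081 TPM in WT libraries. The log2 ratio of Slc1a2 to Slc1a3 was -3.76 ± 0.151 in iKO and -4.05 ± 0.124 in WT (SD, n = 4; exact permutation p = 0.0286), so Slc1a2 fell by less than Slc1a3.

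Other genes of glutamate and glutamine handling went both ways, with 5 of 11 tested genes higher, 4 lower and 2 not passing, and a median log2 fold change of -0.0046, or 0.06 with trimmed mean factors. Slc38a5, a glutamine transporter, rose from 27.1 to 69.1 TPM. Slc38a1, a neuronal glutamine transporter, fell from 158 to 129.6 TPM, and the mitochondrial enzymes Got2 and Glud1 fell to 189.7 TPM from 226 TPM and to 466 TPM from 573 TPM. Glul, glutamine synthetase, counted with the other astrocyte genes, fell from 316 ± 6.74 to 153 ± 0.512 TPM (SD, n = 4).

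Gfap encodes the intermediate filament of astrocytes and of adult neural stem cells, and S100b a calcium-binding protein that appears as astrocytes mature. Gfap (ENSMUSG00000020932.14) stood at 729.5, 749.9, 762 and 756 TPM in iKO and at 894, 884, 902 and 909.7 TPM in WT. All iKO libraries were below all WT libraries, a modest fall of 0.26 on the log2 scale (SE 0.0163, limma adjusted p = 2.72e-06). S100b (ENSMUSG00000033208.7) was the least abundant member, at 11.2, 11.2, 10.8 and 9.87 TPM in iKO and 8.77, 9.46, 7.70 and 8.52 TPM in WT. It moved the other way without overlap, by 0.29 on the log2 scale (SE 0.0699, limma adjusted p = 0.00681). The authors' deposited table gave S100b 0.413 on the log2 scale (adjusted p = 0.00212), at a mean normalized signal of only 120.5 against 19516 for Gfap.

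Families around these members were mixed. Of 10 tested intermediate filament genes outside the members, 3 rose, 4 fell and 3 did not pass: Vim, expressed by radial glia, fell from 282 to 240.4 TPM, while Nes rose from 59.6 to 70.6 TPM. Nuclear lamins split as well, with Lmna falling from 56.6 to 40.9 TPM and Lmnb1 rising from 129 to 147 TPM. In the S100 family, 4 of 9 tested genes rose, 1 fell and 4 did not pass, and with trimmed mean factors 7 rose. S100a16, which astrocytes also express, rose from 1304 ± 6.57 to 1763 ± 35.3 TPM (SD, n = 4), a far higher level than that of S100b. S100a4 fell from 19.9 to 5.26 TPM, and S100a8 and S100a9, neutrophil genes, rose to 4.19 TPM from 2.19 TPM and to 4.26 TPM from 0.955 TPM. The authors' deposited table did not call S100a8 (adjusted p = 0.124).

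Aldh1l1, Aldoc and Ndrg2 encode soluble proteins. ALDH1L1 is a folate enzyme used as a pan-astrocyte marker, aldolase C is the glycolytic aldolase of brain, and NDRG2 is a cytoplasmic protein abundant in cortical astrocytes. Aldh1l1 (ENSMUSG00000030088.15) stood at 238, 237, 228 and 231 TPM in iKO and at 244, 236, 239 and 238 TPM in WT. The groups overlapped, and the log2 difference was -0.03 (95% interval -0.08 to 0.01, limma adjusted p = 0.196), so a fall of the size seen in Gfap lay outside the interval. The sign of this small difference turned with trimmed mean factors (0.03, adjusted p = 0.295), and quantile normalization gave -0.06 (adjusted p = 0.0489). With the sex score as covariate Aldh1l1 stood at -0.13 (SE 0.0765 against 0.0204 without it, limma adjusted p = 0.418), beside -0.23 for Gfap. The comparison with the size of the Gfap fall is thus for the fit without that covariate.

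Aldoc (ENSMUSG00000017390.15) stood at 461, 480.0, 497 and 483 TPM in iKO and at 658, 666, 679 and 687 TPM in WT. The groups were well separated, with a log2 fold change of -0.49 (SE 0.0239, limma adjusted p = 6.46e-07). Ndrg2 (ENSMUSG00000004558.15) stood at 529.7, 548, 534 and 530.4 TPM in iKO and at 915, 917, 926 and 967 TPM in WT. After Gjb6 it was the largest change among the members, at -0.80 (SE 0.0206, limma adjusted p = 1.83e-08). WT replicate 4 was the highest WT library for Ndrg2, and every iKO library was far below the lowest WT library.

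The log2 ratio of Aldoc to Aldoa, the aldolase of most tissues, fell from 1.53 ± 0.0462 in WT to 1.21 ± 0.0488 in iKO (SD, n = 4; exact permutation p = 0.0286). Aldoa lay between 204 and 213 TPM in iKO and between 226 and 238 TPM in WT, counting the more abundant of its 2 gene IDs. Of 16 tested glycolytic genes, 8 fell and 4 rose in these data, while the authors' deposited table called 7 lower and 7 higher. Ldhb, a lactate dehydrogenase subunit gene, fell from 661 to 454 TPM and Eno1 from 656 to 404 TPM, while Tpi1 rose from 98.9 to 128 TPM. For Eno1 the authors' deposited table gave a smaller log2 fold change, -0.302 against -0.699. Folate enzymes and carriers had 2 of 13 higher and 4 lower. Aldh1l2, the mitochondrial relative of Aldh1l1, fell from 11.5 to 7.50 TPM. In the NDRG family, Ndrg4 rose from 47.9 to 56.8 TPM, while Ndrg3 (72.8 and 70.6 TPM in iKO and WT) and Ndrg1 (1.98 and 2.26 TPM) did not pass.

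The order of the members by level was nearly kept. In WT it ran Aqp4, Mlc1, Ndrg2, Gfap, Aldoc, Gja1, Aldh1l1, Slc1a2, Gjb6 and S100b, from 1267 to 8.61 TPM on average. In iKO, Gfap moved to the second place, above Mlc1 and Ndrg2. The ranges of neighbours in the order overlapped only for Slc1a2 and Gjb6 in WT, at 122 ± 8.6 and 118.9 ± 9.39 TPM (SD, n = 4). In iKO the same genes stood apart, at 91.0 ± 10.8 and 30.7 ± 3.2 TPM. In WT 9 members ranked among the most abundant 9.74% of tested genes, Aqp4 at rank 73 and Gjb6 at rank 1599, while S100b was at rank 9992. Coefficients of variation between libraries were 1.2% to 3.06% for 7 members and 5.9% to 11.9% for Slc1a2, Gjb6 and S100b, the members of lowest level.

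**Figure D2:**
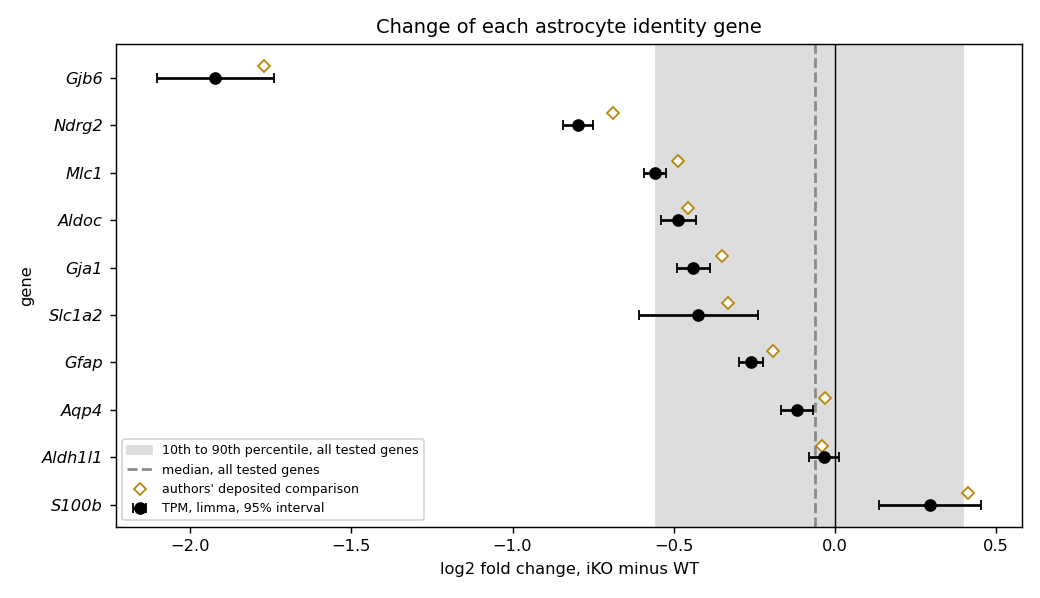
Log2 fold change, iKO minus WT (horizontal axis), of each member (vertical axis) with its 95% interval from limma on TPM (black) and the value in the authors' deposited table (open diamonds). The grey band holds the middle 80% of tested genes and the dashed line their median of -0.06. Gjb6 and Ndrg2 lie well left of the band, Mlc1 lies at its edge, and the others lie inside it.

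The authors' deposited table, whose headings are those DESeq2 writes, called 7 members lower and 1 higher, against 33.9% of its 29438 rows with a fold change called in either direction. Of these rows, 4927 were called lower and 5042 higher. They include genes too low for the filter used here, so 33.9% is not a close background for the members. The deposited table rests on the same libraries. On the log2 scale the authors' deposited table had -1.77 for Gjb6, -0.689 for Ndrg2, -0.487 for Mlc1 and -0.456 for Aldoc. For Gja1 the authors' deposited table gave -0.350, for Slc1a2 -0.332 and for Gfap -0.192. Values from the authors' deposited table were higher than those from TPM for each member except Aldh1l1, where the authors' deposited table gave -0.039.

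**Figure D3:**
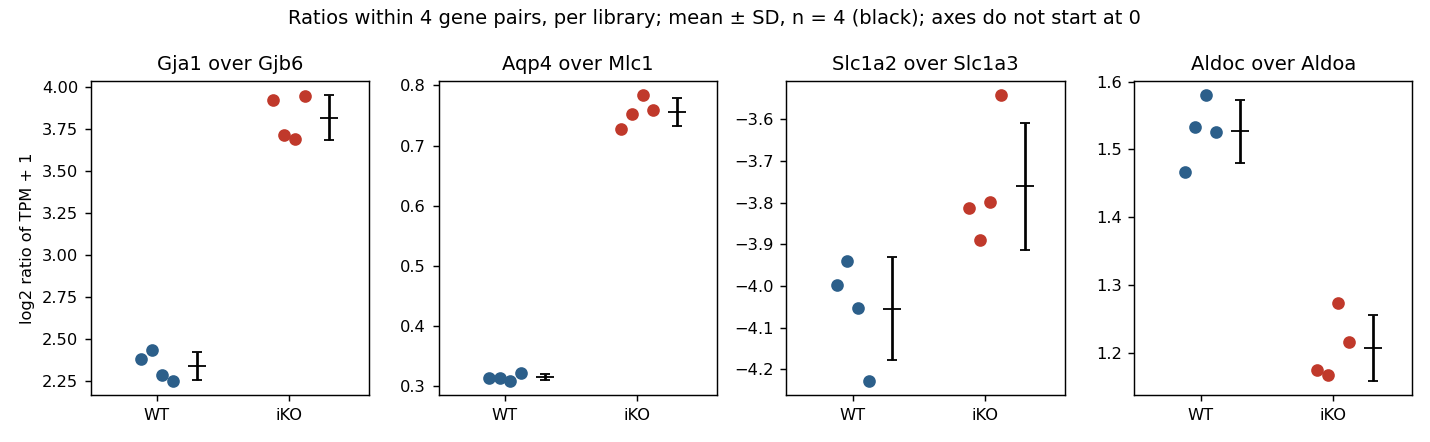
Log2 ratio of TPM + 1 (vertical axes, which do not start at 0) within 4 gene pairs, 1 point per library in WT and iKO, with the mean and SD in black. The groups do not overlap in any of the pairs, and the shift is widest for Gja1 over Gjb6, at 1.48. The groups also did not overlap in 49.2% of single tested genes, and how often ratios of other gene pairs separate was not tested.

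Other astrocyte genes also fell more often than they rose. Of 39 tested genes on a list that leaves out the 10 members, 26 fell, 7 rose and 6 did not pass. The median of their log2 fold changes was -0.29. The smallest p-values belonged to falls: Agt, the angiotensinogen gene, from 726 to 62.8 TPM, Glul, Slc1a3, and Htra1, a secreted protease gene, from 1901 ± 61 to 1011 ± 19.5 TPM (SD, n = 4). The genes that rose, all 7, were Prdx6, Ntsr2, Lgr6, Tril, Chrdl1, Slc7a10 and Gpr37l1, named after their values were seen. Prdx6, an antioxidant enzyme gene, rose from 1047 to 1362 TPM. Ntsr2, a neurotensin receptor gene, rose from 351 to 424 TPM, while the authors' deposited table gave it a log2 fold change of -0.08 (adjusted p = 0.00285), in the other direction.

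Transcription factors of astrocyte formation fell in 16 of 21 tested cases and rose in 2 (median log2 fold change -0.28). Zbtb20, which promotes astrocyte formation, fell from 633 ± 8.56 to 473 ± 9.04 TPM, and Nfix, an NFI factor, from 621 ± 6.37 to 494 ± 7.66 TPM (SD, n = 4). Id3, an inhibitor of helix-loop-helix factors, fell from 1086 to 871 TPM, while its relative Id1 rose from 482 to 546 TPM. Genes of reactive astrocytes, which respond to injury and inflammation, fell in 12 of 18 tested cases and rose in 3 (median -0.51). Serpina3n, a protease inhibitor gene, fell from 54.2 ± 3.03 to 12.6 ± 0.301 TPM (SD, n = 4), Slc10a6 from 4.73 to 0.124 TPM and Cp, the ceruloplasmin gene, from 33.2 to 8.85 TPM. Srgn, a proteoglycan gene also expressed by blood and endothelial cells, rose from 17.1 to 36.8 TPM.

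**Figure D4:**
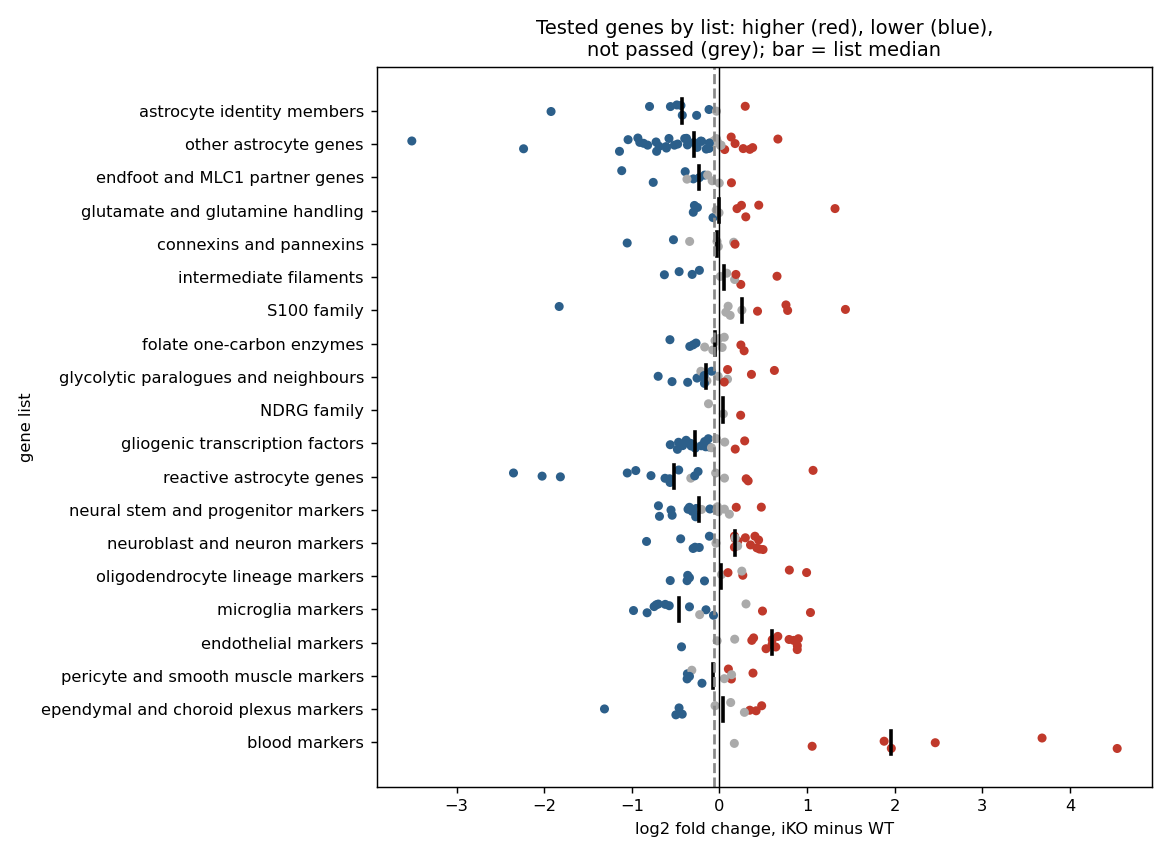
Log2 fold change, iKO minus WT (horizontal axis), of every tested gene in each list (vertical axis), coloured by whether it rose (red), fell (blue) or did not pass (grey) in limma. Black bars are list medians, and the dashed line is the median of all tested genes. The members have a median of -0.43, microglia markers of -0.46 and reactive astrocyte genes of -0.51. Endothelial markers have a median of 0.60 and blood markers of 1.96.

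Markers of other cells moved between the same groups. Markers of the sorted cells, neural stem and progenitor cells, were present: 10 of 18 fell and 2 rose (median -0.23), and with trimmed mean factors 7 fell and 3 rose. Their summed level lay between 4332 and 4403 TPM in iKO and between 5304 and 5373 TPM in WT. Fabp7, a radial glia gene, rose from 664 to 925 TPM, and Bcan fell from 1771 to 1093 TPM. Neuroblast and neuron markers included 11 of 20 that rose and 6 that fell, with sums between 3248 and 3350 TPM in iKO and between 3085 and 3146 TPM in WT. Of 15 endothelial markers 12 rose and 1 (Slc2a1) fell, with sums between 1818 and 1918 TPM in iKO and between 1363 and 1405 TPM in WT. Of 7 tested blood markers 6 rose, and sums lay between 743 and 867 TPM in iKO and between 75.3 and 87.0 TPM in WT.

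Of 14 microglia markers 10 fell and 2 rose, and sums lay between 695 and 726 TPM in iKO and between 816 and 873 TPM in WT. The median log2 fold change of the microglia markers was -0.46, beside -0.43 for the members, so a fall of this size was not particular to the members. Oligodendrocyte lineage markers had 4 of 11 higher and 5 lower, pericyte and smooth muscle markers 3 of 10 higher and 4 lower, and ependymal and choroid plexus markers 3 of 10 higher and 4 lower. No marker on any of these lists was at 0 in all 8 libraries. The part of these other cells in the falls of the members was not tested. With the sex score, which itself separates the groups, as a covariate, 3 members stayed past the threshold in limma: Gjb6 at -2.06 (adjusted p = 0.0232), Ndrg2 at -0.79 (adjusted p = 0.00631) and Mlc1 at -0.52 (adjusted p = 0.00877). In that fit only 423 of all 16413 tested genes passed, 228 lower and 195 higher in iKO, and the SE of Gfap went from 0.0163 to 0.0672. The other 6 members called without the covariate no longer passed. Among them Aldoc stood at -0.42 (adjusted p = 0.0693), Gja1 at -0.30 (adjusted p = 0.102) and Gfap at -0.23 (adjusted p = 0.123). Aqp4 stood at -0.07 (adjusted p = 0.746), Slc1a2 at -0.04 (adjusted p = 0.963) and S100b at 0.04 (adjusted p = 0.959).

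By position, the nearest tested gene on each side of every member in the RefSeq order gave 20 neighbours, of which 9 fell, 3 rose and 8 did not pass. That share of falls can be set beside the 31.9% of all tested genes. On either side of Gjb6 the changes were opposite: Gjb2 fell by 1.05 and Cryl1, a crystallin-related enzyme gene, rose by 0.61 on the log2 scale. Beside Aldh1l1, which did not pass, Klf15, a transcription factor gene, fell from 27.8 ± 1.17 to 11.7 ± 1.01 TPM (SD, n = 4; log2 fold change -1.18). Both neighbours of Ndrg2, Mettl17 and Arhgef40, did not pass, with log2 fold changes of -0.07 and -0.02. Both neighbours of Gja1, Msl3l2 and Hsf2, did not pass either, at -0.21 and -0.04. These neighbours were looked at after the members' values had been seen.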

How the data were processed

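Full-length cDNA of sorted NSPCs was made with Smart-Seq2 and sequenced as paired ends, per the labels' protocols. The values analysed were TPM computed by the authors for 55385 genes in 8 libraries. The aligner, the quantifier and the build were not given in the sources used here. Depth is unknown, so no counting intervals are given. A second deposited table held the authors' comparison, per the file headers: p-values, a test score, a mean normalized signal, and a log2 fold change and its standard error. Genes with no p-value have an adjusted p of 1 there.

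The 16413 genes whose TPM reached 1 in 4 or more libraries were fitted as log2(TPM + 1), iKO minus WT, by limma 3.58.1 (R 4.3.3), with its trend and robust options. P-values were two-sided and Benjamini-Hochberg adjusted over all tested genes. Fold changes on this scale understate the change of low genes. The procedure was tested on simulated data. Ratios of 4 gene pairs were compared by exact permutation (SciPy 1.17.1) and adjusted over the 4 pairs. No member fell below the filter. Trimmed mean of M values factors were computed on the TPM. Figures used matplotlib 3.10.9. Start regions came from RefSeq (GRCm38.p6).

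Named genes were the 10 members, Ash2l, the pair partners, up to 4 genes per other list with the smallest unadjusted p, and any member of families of up to 12 genes. The members and lists were chosen with earlier results of these data known. Genes of a list with near-identical copies, such as the haemoglobin genes, are uncertain because of reads shared between copies. Alternatives were pseudocounts of 0.1 and 5, all genes, genes with a mean TPM of 5 or more, trimmed mean factors, quantile normalization, library weights, a replicate block, 1 library left out at a time, the sex score as covariate and the authors' comparison.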

Additional observations from a re-analysis of the deposited data

Results flagged for a closer look

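Slc1a3, the partner of Slc1a2 in the ratio of glutamate transporters, stood at 1201 TPM in iKO replicate 1 and at 1258, 1248 and 1256 TPM in the other iKO libraries, a gap that took up most of the range of its group. It was the only value to stand apart in this way among 34 groups of 4 libraries that were checked, and chance alone gives about 1 in 20.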

How the results depend on the processing

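Over the alternatives other than the sex score, 7 to 9 members were lower and 1 was higher in iKO (7 lower with trimmed mean factors and in the authors' deposited table, 9 with quantile normalization). With that covariate, limma gave 423 genes changed, 3 members lower (6 at an unadjusted p of 0.05) and 0 higher (0 at an unadjusted p of 0.05). The authors' deposited table, whose model is not given in its headings, called 7 members lower and 1 higher. With the sex score as covariate the other astrocyte genes had 12 lower and 1 higher, and the members' median was -0.27. That median was -0.37 with trimmed mean factors, -0.34 in the authors' deposited table, and -0.47 to -0.41 over the leave-one-out fits, against a spread between libraries of 0.0219. Leaving out 1 library at a time gave 7808 to 8003 genes changed, 8 members lower and 1 higher each time, and 24 to 26 other astrocyte genes lower and 6 to 7 higher. Aldh1l1 changed sign with trimmed mean factors, from -0.034 to 0.030 on the log2 scale. The same factors moved every member upward, Gfap from -0.260 to -0.196 and Mlc1 from -0.559 to -0.495. Why the factors differed between the groups was not tested.

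Trimmed mean factors moved the share of higher genes among all calls from 39.3% to 49.9% and quantile normalization to 49.7%, while the median of all genes went from -0.06 to -0.0042 and 0.0046. The ratio differences over the leave-one-out sets were 1.44 to 1.52 for Gja1 over Gjb6, 0.43 to 0.45 for Aqp4 over Mlc1, 0.22 to 0.34 for Slc1a2 over Slc1a3 and -0.34 to -0.30 for Aldoc over Aldoa. With 7 libraries the exact permutation p cannot go below 0.0571, so these sets cannot pass. The replicate numbers did not pair the libraries: same-numbered iKO and WT libraries had correlations of -0.04 to 0.0007 between their deviations. With the replicate block, limma called 8097 genes, again 8 members lower and 1 higher, and the ratio differences were the same, 1.48, 0.44, 0.29 and -0.32, at an exact p of 0.125, the smallest that 4 pairs allow.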
